A study of Mus musculus with 8 samples.

Results

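Luminal progenitors of the mouse mammary gland were compared between mice that had never been pregnant and mice whose gland had returned to a resting state after lactation, by the transcripts other than the caseins, *Wap*, *Lalba* and *Glycam1*. The cells were those that the authors placed in cluster C6 in the 2 nulliparous (NP) libraries and in cluster C7 in the 2 post-involution (PI) libraries, among cells past the authors' quality flags. There were 688 NP cells (372 and 316 in the first and second mouse) and 1925 PI cells (824 and 1101), together 2613 of the 25010 cells of the series. All mice were C57BL/6N females without an engineered allele in the labels or the study's methods. NP mice were 8 weeks old. PI mice had been mated, had littered and nursed, and were taken 11 days after natural weaning of their pups, at an age that the labels do not give. Age, the number of pregnancies and the time since weaning therefore cannot be told apart in this comparison. Each library held the mammary cells of 1 mouse, sorted for the epithelial surface protein EpCAM after removal of endothelial and blood cells by surface markers. By the study's vaginal smears both NP mice and the second PI mouse were in oestrus and the first PI mouse in dioestrus, the progesterone-dominated phase.

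Luminal progenitors line the ducts and alveoli of the gland and lack most of the receptors for ovarian steroids. They give rise to the alveolar cells that make milk in pregnancy, and the resting gland keeps a pool of them between pregnancies. In involution the milk-making epithelium is removed by cell death and by lysosomal digestion, inflammatory and acute-phase genes are induced through STAT3, and fat cells refill the gland. The comparison asks how far the transcripts of the progenitors have returned to those of a nulliparous gland.

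Transcripts had been counted by unique molecular identifiers (UMIs), tags that tell captured molecules apart. The UMIs of all member cells of a mouse were summed, and the mouse is the replicate. The sums held 3313638 and 2411364 UMIs in NP and 7393607 and 7967835 in PI. Levels are given in CPM, a gene's UMIs per 1000000 of all UMIs summed for its mouse, first for both NP mice and then for both PI mice. Genes were compared with edgeR's quasi-likelihood F-test after TMM normalisation, with Benjamini-Hochberg adjustment over all 10744 genes tested. A gene is called at an adjusted p under 0.05. Log2 fold changes are PI over NP with their standard error. With 2 mice per group an exact two-sided permutation test of a single gene gives p = 0.333 at best. The adjusted p-values draw on a spread that edgeR estimates over many genes. The clusters were made by the authors from these same counts, and C6 and C7 differ almost wholly by stage. C6 held 31 further PI cells and C7 1 NP cell. Both counts of calls stayed within 1.5 times the main ones when all C6 and C7 cells were grouped by the stage of their mouse, with 1494 genes higher and 1398 lower. So few added cells cannot show how far the clustering shaped the comparison.

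The luminal keratins *Krt8* and *Krt18* were high, and the basal keratin *Krt5* and the progesterone receptor *Pgr* low, in both stages. The luminal keratins *Krt8* (6329 and 5131 CPM in NP, 5683 and 5268 CPM in PI) and *Krt18* (9819 and 7699 CPM in NP, 9558 and 8907 CPM in PI) were abundant in all 4 sums. *Krt5* lay at or under 8.45 CPM and *Pgr* at or under 5.13 CPM in every sum. Other markers of these kinds were not all as low or as level. The 18 basal and myoepithelial markers together held 494.6 and 306.5 CPM in NP and 111.9 and 317.8 CPM in PI. The oestrogen receptor *Esr1* was called higher in PI (1.42 ± 0.26, adjusted p = 0.00226), in a hormone-sensing list of 13 tested genes with 2 higher and 4 lower. Of the fibroblast markers, *Col1a1* stood at 29.9 CPM (72 UMIs) in the second NP mouse, at 0 in both first mice and at 1.51 CPM in the second PI mouse. The 10 markers together held 157.2 and 324.3 CPM in NP and 48.8 and 84.8 CPM in PI. In all but the second NP mouse most of that sum was *Gsn*, which luminal cells also express. Of the immune cell markers, *Cd3e* and *Adgre1* were at 0 in all sums, and the list held 4.22 to 26.6 CPM in total. Adipocyte markers summed to 1.21 to 4.64 CPM, with *Adipoq* at 0 in every sum. The 8 milk protein genes that are set aside here took 0.077% and 0.144% of UMIs in NP and 1.37% and 1.47% in PI.

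Rises and falls were nearly equal in number. Of 10744 genes, 1524 were higher (14.2%) and 1431 lower (13.3%) in PI, and 687 and 647 of these changed by more than 1 on the log2 scale. Among called genes 51.6% were higher. Scaling by library totals without TMM moved the median of all genes by -0.0899 and this share to 40.1% (1223 higher, 1827 lower), so the balance of directions depends on the scaling. In CPM, which are scaled without TMM, the libraries of NP and PI did not overlap in 66% of genes tested, 26.8% with PI above and 39.2% with PI below. These shares were not counted with TMM. For a gene with no difference between the stages, 2 against 2 mice would not overlap with a probability of 0.333. The first NP mouse weighs most on the counts, and without it 876 genes were higher and 851 lower.

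**Figure D1:**
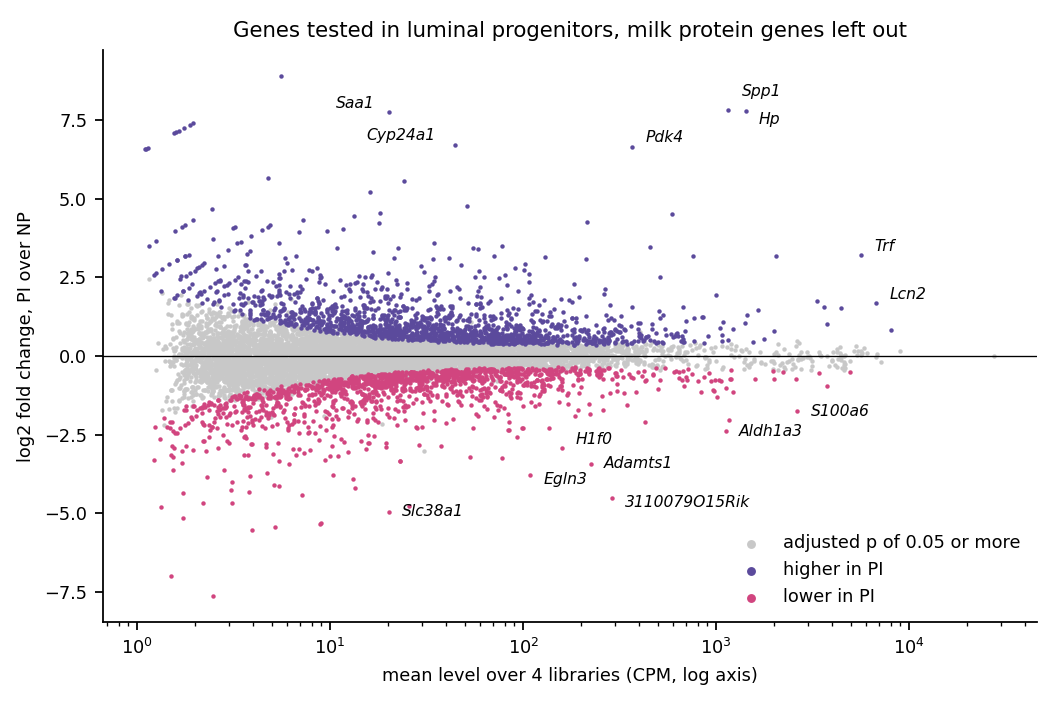
Log2 fold change of PI over NP in luminal progenitors against the mean level over the 4 libraries in CPM (log axis), 1 point per gene tested, with the milk protein genes left out and 14 of the genes described in the text labelled. The 1524 genes called higher (milk protein genes among them, not drawn) and the 1431 called lower have medians of 0.92 and -0.93. The rises reach farther, with 78 genes over 3 against 52 under -3. The most abundant raised genes lie farther from 0 than the most abundant lowered ones.

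Genes are named by a rule: outside the milk proteins, the 20 largest rises and the 20 largest falls on the log2 scale among called genes whose mean reached 20 CPM in NP or PI and whose NP and PI mice did not overlap, and the 10 largest of each in CPM. The values that follow were therefore chosen for their size. Several of the largest rises by fold were in secreted acute-phase proteins. *Hp*, haptoglobin, which binds free haemoglobin, stood at 8.15 and 20.3 CPM in NP and 2085 and 3571 CPM in PI (log2 fold change 7.79 ± 0.39, adjusted p = 1.92e-07). Serum amyloid *Saa1* was at 0 and 0.415 CPM in NP, a single UMI in all, and at 42.2 and 38.0 CPM in PI, a ratio of 229 with a 95% counting interval from 41.0 to 9068 (adjusted p = 5.65e-07). Its close copy *Saa2*, whose reads may be shared with it, had no UMI in NP and 168 in PI, which makes it at least 20.9-fold higher against a limit of 3 UMIs over both NP mice. *Lbp*, the plasma protein that hands lipopolysaccharide to CD14, went from 7.24 and 14.9 to 124 and 87.3 CPM (3.39 ± 0.27, adjusted p = 6.64e-06). *Hp*, *Saa1* and *Lbp* were each higher in both PI mice than in either NP mouse, as the rule required. *Saa2* was not chosen by this rule and is named as a member of a gene list. *Pigr*, the receptor that carries dimeric IgA across epithelium into milk, rose from 1.51 and 0.829 to 28.1 and 22.5 CPM (4.43 ± 0.35, adjusted p = 5.56e-06), and the mucosal chemokine *Cxcl17* from 6.34 and 4.56 to 77.9 and 48.7 CPM (3.59 ± 0.29). The lipid-presenting molecule *Cd1d1* stood at 2.72 and 5.81 CPM in NP and 42.3 and 39.4 CPM in PI (3.42 ± 0.27), and *Ceacam10*, of the CEA adhesion family, at 2.72 and 0.829 CPM in NP and 32.3 and 35.6 CPM in PI (4.22 ± 0.32).

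Other named rises were in genes of fuel choice and fat storage. *Pdk4*, the kinase that closes the pyruvate dehydrogenase step and spares glucose, was at 6.94 and 8.71 CPM in NP and 628 and 828 CPM in PI (6.65 ± 0.23, adjusted p = 1.02e-08). *Hilpda*, a lipid droplet protein that restrains triglyceride breakdown, was at 39.8 and 67.2 CPM in NP and 936 and 1314 CPM in PI (4.50 ± 0.26, adjusted p = 5.52e-07), and *Angptl4*, a secreted inhibitor of lipoprotein lipase, at 31.7 and 11.6 CPM in NP and 418 and 391 CPM in PI (4.25 ± 0.27, adjusted p = 1.19e-06). In all 3 both PI mice lay above both NP mice, as the rule required. The lysosomal acid lipase *Lipa* rose from 12.1 and 14.9 to 148 and 134 CPM (3.49 ± 0.17, adjusted p = 1.69e-07), and *Cel*, the bile salt-dependent lipase that mammals also secrete in milk, from 4.83 and 2.49 to 104 and 92.2 CPM (4.76 ± 0.23, adjusted p = 1.69e-07).

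The remaining named rises had varied roles. *Spp1*, the secreted phosphoprotein osteopontin, was at 1.51 and 22.4 CPM in NP (5 and 54 UMIs) and 2036 and 2563 CPM in PI (7.83 ± 0.54, adjusted p = 2.66e-06). The NP mice differed widely from each other in *Spp1*, yet both lay far under the PI mice. *Tnc*, tenascin C, a matrix glycoprotein of remodelling tissue, rose from 1.51 and 1.66 to 30.2 and 39.2 CPM (4.53 ± 0.32, adjusted p = 3.04e-06). *Cyp24a1*, the enzyme that inactivates vitamin D, rose from 1.51 and 0 to 65.5 and 111 CPM (6.71 ± 0.49, adjusted p = 3.87e-06), with 5 UMIs in the first NP mouse and none in the second. The zinc importer *Slc39a8* went from 1.51 and 0.415 to 55.9 and 38.1 CPM (5.54 ± 0.39), and the gut peptide hormone *Cck*, cholecystokinin, from 63.7 and 97.9 to 626 and 1026 CPM (3.46 ± 0.26, adjusted p = 4.40e-06). *Gstm1*, a glutathione transferase, stood at 9.96 and 9.95 CPM in NP and 108 and 92.6 CPM in PI (3.42 ± 0.18). *Pkib*, an inhibitor of protein kinase A, and the non-coding RNA *C530043A13Rik* complete the 20, with log2 fold changes of 5.20 ± 0.52 and 4.03 ± 0.34.

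The 10 largest rises in CPM were those of *Hp* and *Spp1*, given above, and of 8 genes that were already at 336 CPM or more in both NP mice. *Trf*, transferrin, was at 1171 and 1171 CPM in NP and 8998 and 11190 CPM in PI (3.20 ± 0.20, adjusted p = 9.51e-07). *Lcn2*, lipocalin 2, which withholds iron carriers from bacteria, rose from 3252 and 3485 to 9996 and 10300 CPM (1.68 ± 0.18, adjusted p = 4.80e-05), and *Ltf*, lactoferrin, from 336 and 525 to 4498 and 2829 CPM (3.17 ± 0.26, adjusted p = 8.29e-06). Both ferritin chains, which store iron, were higher in PI, *Fth1* with 2311 and 2448 against 7059 and 5892 CPM (1.53 ± 0.17) and *Ftl1* with 2654 and 2570 against 4690 and 5167 CPM (1.00 ± 0.16). *Mfge8*, the milk fat globule protein that bridges dying cells to phagocytes, rose from 1763 and 1436 to 5627 and 4453 CPM (1.74 ± 0.18, adjusted p = 4.24e-05). The membrane protein *Itm2b* was at 1818 and 2021 CPM in NP and 5494 and 5202 CPM in PI (1.56 ± 0.17). *Plet1*, a surface-bound glycoprotein of epithelial progenitors, was at 5612 and 6473 CPM in NP and 10480 and 9656 CPM in PI (0.82 ± 0.18, adjusted p = 0.00655), and without the first NP mouse it missed the threshold (adjusted p = 0.0844).

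The named falls drew on other kinds of genes. *Slc38a1*, a sodium-coupled transporter of glutamine and other neutral amino acids, showed the largest fall, from 45.0 and 33.2 CPM in NP to 0.947 and 1.38 CPM in PI (-4.96 ± 0.28, adjusted p = 5.53e-07). *Egln3*, one of the prolyl hydroxylases that mark hypoxia-inducible factor for destruction, fell from 206 and 200.3 to 11.0 and 16.8 CPM (-3.78 ± 0.18, adjusted p = 1.69e-07). *Adamts1*, a secreted metalloproteinase that cuts matrix proteoglycans, fell from 447 and 374 to 32.2 and 39.9 CPM (-3.42 ± 0.16, adjusted p = 1.25e-07). In each of the 3 the lower NP mouse lay at least 9 times above the higher PI mouse. *Adamts1* lies on chromosome 16 from 85793827 to 85803113 of GRCm38 and *Egln3* on chromosome 12 from 54178981 to 54203860. *3110079O15Rik*, listed as *Snorc* in RefSeq and known from cartilage proteoglycan, was the most abundant gene among the 20 and fell from 428 and 679.7 to 28.3 and 17.2 CPM (-4.53 ± 0.26, adjusted p = 6.31e-07). *Gm266* and the non-coding *Gm10371*, without a known role, fell with log2 fold changes of -4.76 ± 0.26 and -4.21 ± 0.33.

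A transcription factor, a linker histone and an RNA-binding protein were also among the named falls. *Tfap2b*, an AP-2 family transcription factor, stood at 43.8 and 40.2 CPM in NP and 3.38 and 4.39 CPM in PI (-3.33 ± 0.21, adjusted p = 1.26e-06). *H1f0*, the linker histone H1.0 of resting and differentiated cells, fell from 207 and 359.5 to 31.1 and 38.5 CPM (-2.93 ± 0.24, adjusted p = 7.03e-06). *Samd4*, an RNA-binding repressor of translation, fell from 61.6 and 40.2 to 5.41 and 8.16 CPM (-2.82 ± 0.24). Both NP mice lay above both PI mice in all 3, as the rule required, and the NP mice of *H1f0* were the most apart.

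The other named falls had varied roles. *Sdpr*, which encodes the caveola coat protein cavin-2, fell from 117 and 74.2 to 7.98 and 11.6 CPM (-3.21 ± 0.23), and *St3gal5*, which makes the ganglioside GM3, from 22.0 and 32.8 to 3.92 and 2.64 CPM (-2.95 ± 0.29). *Armcx2*, an armadillo-repeat gene of the X chromosome, was at 155 and 127 CPM in NP and 11.6 and 16.6 CPM in PI (-3.23 ± 0.18, adjusted p = 5.52e-07). The actin nucleator *Spire1* was at 37.1 and 32.4 CPM in NP and 4.46 and 4.27 CPM in PI (-2.90 ± 0.21) and the actin-binding *Nebl* at 27.8 and 27.8 CPM in NP and 4.60 and 3.01 CPM in PI (-2.78 ± 0.25). *S100a3*, of the S100 calcium-binding family, fell from 46.2 and 38.1 to 2.71 and 5.15 CPM (-3.32 ± 0.26), and the adaptor *Stac2* from 19.9 and 24.5 to 2.16 and 2.76 CPM (-3.06 ± 0.28). *Lrrk1*, a kinase related to LRRK2, stood at 45.0 and 23.2 CPM in NP and 5.82 and 3.89 CPM in PI (-2.75 ± 0.30), and *Dmbt1*, a mucosal scavenger protein, at 28.7 and 12.4 CPM in NP and 1.49 and 4.39 CPM in PI (-2.73 ± 0.44). The tubulin-trimming peptidase *Agbl3* rested most on 1 mouse, with 45.3 and 9.54 CPM in NP and 3.38 and 4.39 CPM in PI (-2.78 ± 0.51, adjusted p = 0.00195), and without the first NP mouse it missed the threshold (adjusted p = 0.0698).

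**Figure D2:**
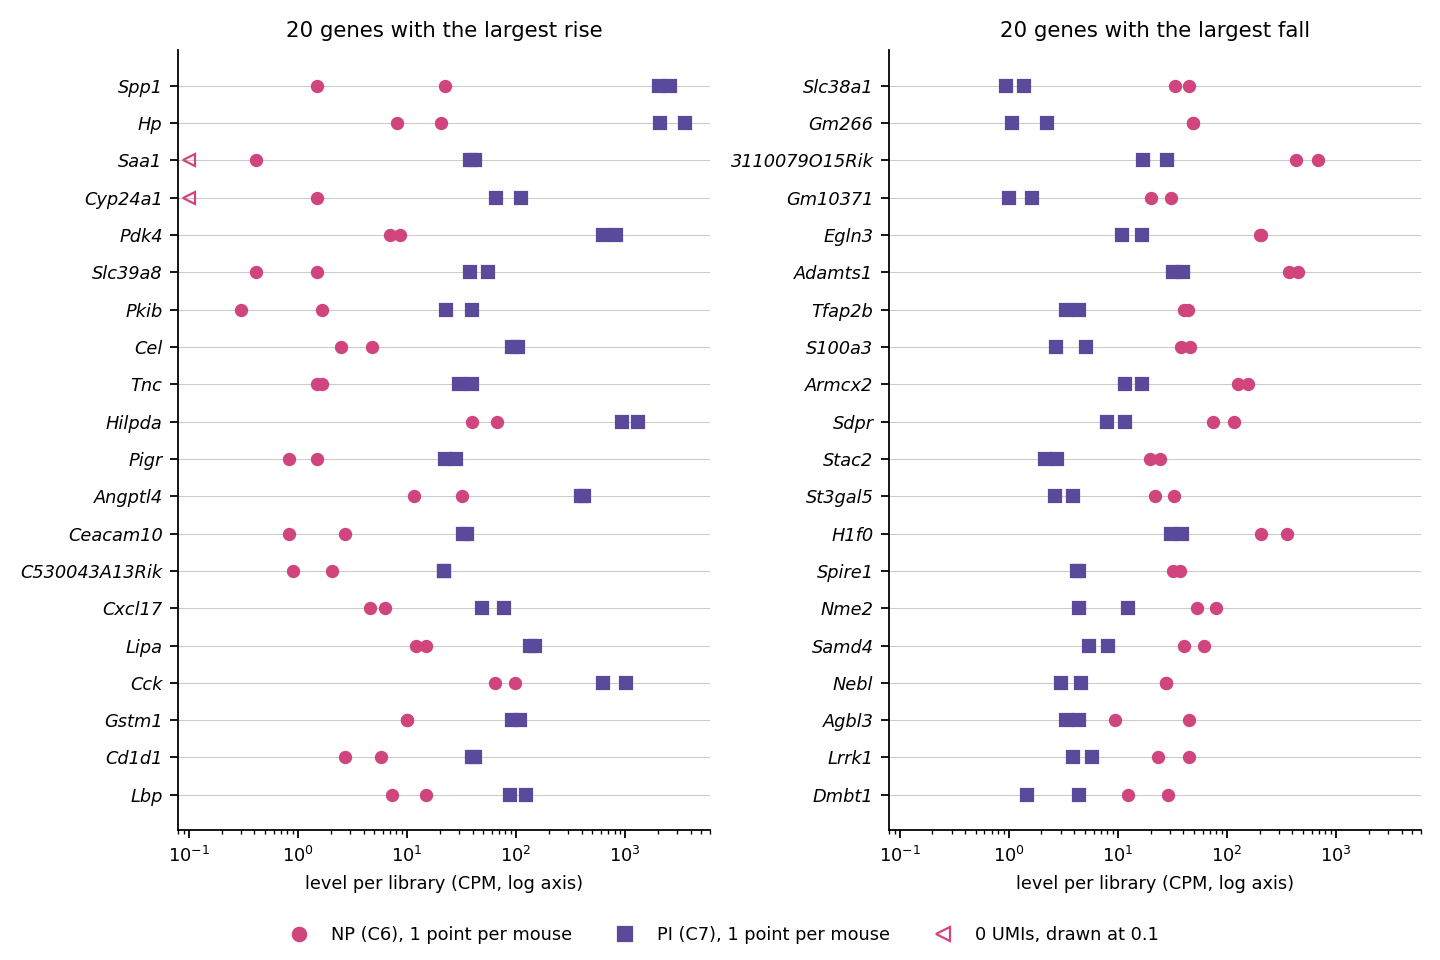
Level per library in CPM (log axis) of the 20 genes with the largest rise (left) and the 20 with the largest fall (right), circles for the 2 NP mice and squares for the 2 PI mice, with values of 0 drawn as open triangles at 0.1. The 2 stages are apart in every gene by the rule that chose them, and the mice of 1 stage lie far apart in NP for *Spp1*, *Pkib* and *Agbl3*.

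By level, the largest losses included the retinoic acid enzyme that marks the cell type. *Aldh1a3*, which makes retinoic acid and marks luminal progenitors, fell from 2035 and 1759 to 396 and 287 CPM (-2.39 ± 0.17, adjusted p = 3.87e-06). This fall was not particular to luminal progenitors, and the values of the other luminal cells are given below. *S100a6*, a calcium-binding protein, fell from 4165 and 4052 to 1259 and 1021 CPM (-1.76 ± 0.16, adjusted p = 2.01e-05), and *Wfdc18*, a whey acidic protein-like secreted inhibitor, from 4454 and 5640 to 2842 and 2083 CPM (-0.95 ± 0.20). *Nfkbia*, the inhibitor that holds NF-kB in the cytoplasm, fell from 3292 and 3270 to 1854 and 1900 CPM (-0.72 ± 0.15). Actin and its partners fell too, *Actb* from 2740 and 2361 to 1508 and 1405 CPM (-0.72 ± 0.15), *Tpm1*, a tropomyosin, from 1580 and 1337 to 501 and 598 CPM (-1.32 ± 0.15) and *Efhd2*, a calcium-sensitive actin-binding protein, from 1774 and 1669 to 752 and 704 CPM (-1.15 ± 0.14).

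Some of the lowered transcripts were lower in the other cells of the same PI mice as well. *Nme2*, a nucleoside diphosphate kinase, was at 78.8 and 53.5 CPM in NP and 4.46 and 12.6 CPM in PI (-2.86 ± 0.33) in luminal progenitors and at 73.8 and 54.5 CPM in NP and 3.30 and 10.8 CPM in PI in differentiated hormone-sensing cells. The ribosomal protein gene *Rps19* was at 5693 and 6147 CPM in NP and 3890 and 3971 CPM in PI (-0.50 ± 0.17, adjusted p = 0.0407) and at 4335 and 5142 CPM in NP and 2594 and 2788 CPM in PI in differentiated hormone-sensing cells. The elongation factor *Eef1a1* was at 4054 and 4242 CPM in NP and 2593 and 2824 CPM in PI (-0.53 ± 0.16, adjusted p = 0.0282) and at 5230 and 6156 CPM in NP and 3376 and 3457 CPM in PI there. Both lost their call without the first NP mouse (adjusted p = 0.0997 and 0.0866) and without the second (adjusted p = 0.216 and 0.151). These genes, with *Actb* and both ferritins, have near-identical copies or overlapping neighbours in the genome to which reads may be assigned, and the part of read assignment in their values was not tested.

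Gene lists were counted next, with no test of the list, against 14.2% higher and 13.3% lower among all genes and a median log2 fold change of -0.01. Secretion and defence lists leaned upward. Of 28 tested genes of milk fat synthesis and secretion 20 were higher and 1 lower (median 1.52), and the 20 include *Plin2*, the coat protein of fat droplets, with 166 and 151 CPM in NP and 1432 and 1282 CPM in PI (3.19 ± 0.15). *Btn1a1* and *Xdh*, which wrap secreted fat droplets in membrane, rose with log2 fold changes of 2.73 ± 0.16 and 2.18 ± 0.16, the droplet protein *Cidea* with 1.94 ± 0.14 and the desaturase *Scd1* with 2.51 ± 0.33. *Fabp5*, a fatty acid carrier, was the member that fell (271 and 241 to 102 and 65.1 CPM, -1.53 ± 0.18). Of 22 antimicrobial and acute-phase genes 17 were higher and 2 lower (median 1.59), with *Chil1*, a chitinase-like secreted protein, at 100.2 and 109 CPM in NP and 501 and 357 CPM in PI (2.12 ± 0.17) and *Lrg1* and the protease inhibitor *Slpi* higher with log2 fold changes of 1.29 ± 0.13 and 1.34 ± 0.17. The complement component *C3* went the other way, from 167 and 109 to 31.6 and 29.7 CPM (-2.08 ± 0.18, adjusted p = 1.09e-05).

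Antigen presentation, lysosome and antioxidant lists leaned the same way by smaller steps. Of 16 MHC class I genes 9 were higher and none lower (median 0.52), among them *H2-K1* (403 and 360.0 to 647 and 546 CPM, 0.73 ± 0.14) and *B2m* (0.63 ± 0.14). Of 6 MHC class II genes 4 were higher and none lower (2 higher in DESeq2, without the first NP mouse or without the second PI mouse), at low levels such as 9.36 and 9.54 CPM in NP and 26.6 and 22.7 CPM in PI for *Cd74*, the invariant chain. Immune cell markers, which cells rich in MHC class II also carry, summed to 4.22 and 11.2 CPM in NP and 6.63 and 26.6 CPM in PI, and their part in this rise was not tested. MHC genes are close copies of each other, and their reads may be shared. Of 21 cathepsin and lysosome genes 13 were higher and none lower (median 0.61), and 8 were higher without the first NP mouse. *Ctsc*, which activates granule proteases, showed the largest rise there (26.3 and 31.9 to 87.2 and 81.7 CPM, 1.64 ± 0.16), and *Ctsd*, the main aspartic protease of lysosomes, went from 186 and 196 to 434 and 362 CPM (1.15 ± 0.13). Of 23 oxidative stress and metallothionein genes 17 were higher and 1, *Gstp1*, lower (median 0.81). *Hmox1*, the haem-degrading oxygenase, rose from 48.0 and 84.2 to 368 and 232 CPM (2.29 ± 0.26), and the metal-binding *Mt1* from 675 and 1137 to 2636 and 2102 CPM (1.47 ± 0.23). *Gstp1* lost its call in DESeq2 (adjusted p = 0.115) and without the first NP mouse, the second NP mouse or the second PI mouse (adjusted p = 0.117, 0.0772 and 0.155).

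Growth factor lists split by family. Of 20 TGF-beta and BMP genes 8 were higher (5 in DESeq2 and 4 without the first NP mouse). The ligand *Tgfb3*, a known signal of early involution, was at 14.8 and 19.9 CPM in NP and 52.8 and 80.2 CPM in PI (2.05 ± 0.24) and the downstream repressors *Id1* and *Id2* were higher with log2 fold changes of 2.29 ± 0.31 and 1.41 ± 0.14. The 1 that fell was *Inhba*, an activin subunit, from 8.15 and 12.4 to 0.406 and 0.627 CPM (-4.13 ± 0.47). Of 11 genes of the IGF axis 4 were higher and none lower (2 higher in DESeq2 and without either NP mouse or the second PI mouse), including the binding proteins *Igfbp5* (734 and 997 to 2033 and 2022 CPM, 1.31 ± 0.17) and *Igfbp7* (1.84 ± 0.15). The vitamin D receptor *Vdr* rose from 48.0 and 53.1 to 122 and 113 CPM (1.30 ± 0.14) in a list of 7 serotonin and calcium genes of which 4 were higher and 1 lower (none lower in DESeq2 or without the first mouse of either stage).

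EGF family genes, ligands and receptors of epithelial growth, leaned downward. Of 11 members 6 were lower and none higher, with a median of -0.72, and 4 were lower in DESeq2. Among ligands, *Areg*, amphiregulin, which relays oestrogen action to ductal growth, fell from 154 and 168 to 21.5 and 29.1 CPM (-2.58 ± 0.16, adjusted p = 1.32e-06), and *Btc* and *Nrg1* fell with log2 fold changes of -1.11 ± 0.23 and -0.89 ± 0.22. Among receptors, *Egfr* was at 61.6 and 57.2 CPM in NP and 33.5 and 31.9 CPM in PI (-0.77 ± 0.14), *Erbb3* at 45.3 and 47.3 CPM in NP and 26.0 and 22.7 CPM in PI (-0.84 ± 0.16) and *Erbb2* at 18.7 and 22.0 CPM in NP and 12.3 and 10.8 CPM in PI (-0.72 ± 0.21). The falls of the receptors were each under 1 on the log2 scale, and that of *Areg* was the largest in the family. The ligands *Hbegf*, *Tgfa* and *Epgn*, the receptor *Erbb4* and the feedback inhibitor *Errfi1* did not pass the test, with log2 fold changes from -0.34 to 0.05. *Nrg1* lost its call in DESeq2 (adjusted p = 0.0805) and without the first NP mouse (adjusted p = 0.0726), and *Erbb2* in DESeq2 (adjusted p = 0.171) and without the second NP mouse or the second PI mouse (adjusted p = 0.121 and 0.073).

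Notch genes leaned downward with 1 clear exception. Of 11 members 5 were lower and 1 higher, and 3 were lower in DESeq2 and without the second NP mouse and 2 without the first. The targets *Hes1* and *Nrarp* fell from 196 and 137 to 111 and 79.6 CPM (-0.73 ± 0.18) and from 48.0 and 35.7 to 16.9 and 23.2 CPM (-0.98 ± 0.20), and the receptor *Notch2* (-0.77 ± 0.20) and the DNA-binding effector *Rbpj* (-0.48 ± 0.15) fell too. Another target, *Hey1*, rose from 8.15 and 9.54 to 54.6 and 49.8 CPM (2.66 ± 0.19, adjusted p = 3.60e-06). Of 15 Wnt genes 3 were lower, among them the agonist *Rspo1* (29.6 and 17.4 to 6.36 and 7.53 CPM, -1.69 ± 0.26), and 2 higher, the inhibitor *Sfrp2* (5.43 and 10.4 to 63.0 and 57.7 CPM, 3.08 ± 0.24) and the receptor *Lgr4* (0.91 ± 0.16). Of 8 retinoid genes 3 were lower, *Aldh1a3*, *Rarg* (44.7 and 41.1 to 19.6 and 20.8 CPM) and *Crabp2* (-0.45 ± 0.14), and 1 higher, *Dhrs3*, which turns retinaldehyde back to retinol (7.24 and 7.46 to 36.4 and 36.6 CPM, 2.40 ± 0.20). The smaller falls of these lists depended on single mice and on the tool. DESeq2 did not call *Notch2*, *Rbpj* and *Crabp2* (adjusted p = 0.073, 0.194 and 0.0861). *Hes1* lost its call without the first NP mouse (adjusted p = 0.159) and *Notch2* without the second NP mouse or the second PI mouse (adjusted p = 0.0784 and 0.0703). *Rbpj* and *Crabp2* lost theirs without the first NP mouse (adjusted p = 0.0679 and 0.0783), the second NP mouse (0.216 and 0.168) or the second PI mouse (0.14 and 0.151).

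Structural lists were lower in part. Of 16 S100 and annexin genes 6 were lower and 2 higher (1 higher in DESeq2 and without the first NP mouse, 4 without the filter on low counts and 5 without the second PI mouse). *S100a14* was at 121 and 159 CPM in NP and 28.8 and 22.7 CPM in PI (-2.35 ± 0.18), *Anxa3* at 251 and 204 CPM in NP and 49.0 and 38.8 CPM in PI (-2.29 ± 0.15) and, as the exception, *Anxa8* at 24.8 and 26.1 CPM in NP and 191 and 167 CPM in PI (2.91 ± 0.15). Of 10 luminal keratin genes 4 were lower and none higher (2 lower without the second NP mouse, without the first PI mouse and with equal cells or UMIs), *Krt7* from 584 and 461 to 155 and 181 CPM (-1.55 ± 0.15) and *Krt23*, *Krt6a* and *Krt79* at under 13 CPM. *Krt8* and *Krt18* had log2 fold changes of 0.02 and 0.16 and did not pass. Of 19 tight junction and connexin genes 6 were lower (2 without the first NP mouse) and 4 higher. The adherens junction protein *Cdh1* fell from 479 and 452 to 266 and 278 CPM (-0.69 ± 0.12). *Cldn4* (-0.75 ± 0.17) and *Cldn1* (-0.78 ± 0.13) were lower, and *Cldn8* (2.79 ± 0.35) and the water channel *Aqp3* (1.21 ± 0.14) higher. Of 25 integrin, laminin and collagen genes 9 were lower and 4 higher (2 higher in DESeq2 and without the first NP mouse). The collagen receptor *Itga2* fell from 62.2 and 51.8 to 26.1 and 26.6 CPM (-1.03 ± 0.15) beside *Itgb8* (-0.99 ± 0.14). *Fn1*, fibronectin, was at 5.13 and 12.4 CPM in NP and 0.135 and 1.00 CPM in PI (-3.72 ± 0.65), and its levels were highest in the second NP mouse, where fibroblast markers were also highest. Of 10 linker and variant histone genes 4 were lower and none higher, *Hist1h1c* from 113 and 152 to 26.1 and 42.5 CPM (-1.85 ± 0.22) beside *H1f0*. Of 20 metalloproteinase, inhibitor and serpin genes 7 were lower and 5 higher (2 higher in DESeq2 and without the first NP mouse, 3 without the second), with *Plau* (-2.08 ± 0.32) and *Adam17* (-1.31 ± 0.20), the sheddase of EGF family ligands, among the lower ones. *Cldn4* lost its call without the first NP mouse (adjusted p = 0.056). *Krt6a* lost its call without the second NP mouse or the first PI mouse (adjusted p = 0.22 and 0.0778), and *Krt79* without either of these or the second PI mouse (adjusted p = 0.0908, 0.148 and 0.0572) and in DESeq2 (adjusted p = 0.0739).

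Markers of immune, endothelial and fat cells were low, and few reached the test. Of 16 basal and myoepithelial markers 5 were lower and none higher, while DESeq2 called 1 lower, *Krt15*, and without the second PI mouse 9 were lower. The 5 include *Krt16* at 37.4 and 16.6 CPM in NP and 1.62 and 7.28 CPM in PI (-2.52 ± 0.48), which DESeq2 did not call (adjusted p = 0.107), and *Krt15* at 18.4 and 7.88 CPM in NP and 3.79 and 3.77 CPM in PI (-1.75 ± 0.36). *Krt5*, *Krt14* and *Acta2* had log2 fold changes of -0.86, 0.44 and -0.18 and did not pass. The list summed to 494.6 and 306.5 CPM in NP and 111.9 and 317.8 CPM in PI, so the second PI mouse overlapped NP. *Krt15* lost its call without the first NP mouse (adjusted p = 0.154), and without the first PI mouse 2 markers of the list were higher. Of 5 tested fibroblast markers 2 were lower, *Gsn* (149 and 132 to 42.5 and 60.9 CPM), which luminal cells also express, and *Col1a2*, with 0.905 and 48.5 CPM in NP and 0.135 and 2.64 CPM in PI and so with overlapping groups. DESeq2 did not call *Col1a2* (adjusted p = 0.283), and without the second NP mouse it had a log2 fold change of 0.74 (adjusted p = 0.74). Neither of 2 immune markers, neither of 2 endothelial markers nor the 1 adipocyte marker tested was called, and no red blood cell marker reached the test. Most markers of these types lay under the filter on low counts. Without the filter 4 immune markers and 1 endothelial marker were called higher, each at its highest level in the second PI mouse, and 6 fibroblast markers lower. What part cells of other types have in the falls was not tested.

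Inflammatory signals moved in both directions. Of 17 chemokine and cytokine genes 5 were higher (3 without the first NP mouse), including the neutrophil attractants *Cxcl5* (41.6 and 20.3 to 239 and 129 CPM, 2.62 ± 0.31) and *Cxcl3* (2.39 ± 0.20) and the granulocyte factor *Csf3* (0.85 ± 0.19). Another 6 were lower (3 in DESeq2), among them *Tnf*, from 127 and 142 to 50.7 and 52.6 CPM (-1.29 ± 0.13), and *Csf1*, the macrophage growth factor, from 208 and 210.3 to 110.4 and 94.1 CPM (-0.94 ± 0.13). *Ccl2* (6.64 and 33.2 CPM in NP, 1.62 and 4.02 CPM in PI) and the interferon-induced *Rsad2* (6.94 and 33.6 CPM in NP, 4.19 and 7.28 CPM in PI) were called lower with 1 high mouse, the second NP mouse, and the groups overlapped for *Rsad2*. Neither was called without that mouse (adjusted p = 0.173 and 0.839) or in DESeq2 (adjusted p = 0.112 and 0.324). *Csf3* lost its call without the first NP mouse (adjusted p = 0.0597). Of 27 genes of the STAT3 and NF-kB pathway 8 were higher (4 without the first NP mouse and 5 without the first PI mouse) and 3 lower (1 without either NP mouse). *Stat3* itself was at 189.8 and 188 CPM in NP and 269 and 224 CPM in PI (0.47 ± 0.13) and the receptor *Il4ra* at 29.9 and 35.7 CPM in NP and 114 and 90.4 CPM in PI (1.74 ± 0.17). Of 21 interferon response genes 5 were higher and 3 lower, and in DESeq2 3 were higher and none lower. The small rise of *Stat3* lost its call without the first NP mouse, the second NP mouse or the first PI mouse (adjusted p = 0.128, 0.0862 and 0.0894).

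Transcription factors of luminal cells changed in about equal numbers each way, 13 of 44 higher and 10 lower. *Elf5*, which drives alveolar differentiation, rose from 54.0 and 76.7 to 179 and 150.0 CPM (1.43 ± 0.17). *Gata3*, a luminal determinant, rose with a log2 fold change of 0.88 ± 0.18 and *Stat5a*, the prolactin effector, with 0.96 ± 0.24. Falls beside *Tfap2b* were those of *Tfap2c* (73.3 and 109 to 33.5 and 41.3 CPM, -1.19 ± 0.20), *Tbx3* (-1.91 ± 0.30), the chromatin protein *Hmga1* (93.8 and 129 to 41.5 and 28.7 CPM, -1.57 ± 0.20), *Runx1* (-0.59 ± 0.12) and *Sox9* (-0.58 ± 0.15). Without the first NP mouse *Gata3*, *Stat5a* and *Sox9* lost their calls (adjusted p = 0.0503, 0.156 and 0.0725), and *Sox9* also without the first PI mouse (adjusted p = 0.0536). Of 14 luminal progenitor genes 4 were higher, such as the lipopolysaccharide co-receptor *Cd14* (292 and 280.3 to 884 and 572 CPM, 1.43 ± 0.18), and 5 lower, and the stem cell factor receptor *Kit* (63.7 and 78.8 CPM in NP, 42.5 and 55.5 CPM in PI) did not pass. Of 13 hormone-sensing genes 2 were higher, *Esr1* and *Gata3*, and 4 lower.

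Metabolic and housekeeping lists were mixed. Of 22 hypoxia and glycolysis genes 10 were higher and 4 lower: *Vegfa*, the vascular growth factor, rose from 30.8 and 29.4 to 133 and 137 CPM (2.25 ± 0.14) while *Egln3*, *Car9*, *Pgk1* and *Pfkp* fell. Of 22 ion and amino acid transporters 9 were higher, among them the sodium channel subunit *Scnn1b* (12.4 and 9.12 to 60.9 and 57.2 CPM, 2.52 ± 0.19) and the zinc importer *Slc39a14* (1.76 ± 0.13), and 2 lower. Of 73 oxidative phosphorylation genes 18 were higher and 6 lower (9 higher without the first NP mouse, 11 higher and 2 lower without the second). Of 9 mitochondrially encoded genes 2 were lower. Of 20 endoplasmic reticulum folding genes 7 were higher and 1 lower (3 higher without the second NP mouse or without TMM, 4 without the first NP mouse, 11 without the filter). Of 13 heat shock genes 5 were higher and 2 lower. Of 23 immediate early genes, which tissue dissociation is known to raise, 5 were higher and 1 lower (8 higher without the first NP mouse, 9 without the filter). Of 82 ribosomal protein genes 1 was higher and 11 were lower (4 lower without the second NP mouse). The list took 26.4% and 28.6% of UMIs in NP and 23.1% and 25.4% in PI. Cholesterol genes had 1 higher and 3 lower of 19. Cell division genes had 1 higher and 3 lower of 20 (10 higher without the second NP mouse). Cell cycle inhibitors and cyclins had 2 higher and 3 lower of 22. Cell death regulators had 5 higher and 2 lower of 21 (none lower in DESeq2), the anti-apoptotic *Mcl1* higher (1.06 ± 0.15) and *Bcl2l1* lower (-0.62 ± 0.16). The call of *Bcl2l1* was lost in DESeq2 (adjusted p = 0.0792) and without the first NP mouse or the second PI mouse (adjusted p = 0.0733 and 0.0524).

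**Figure D3:**
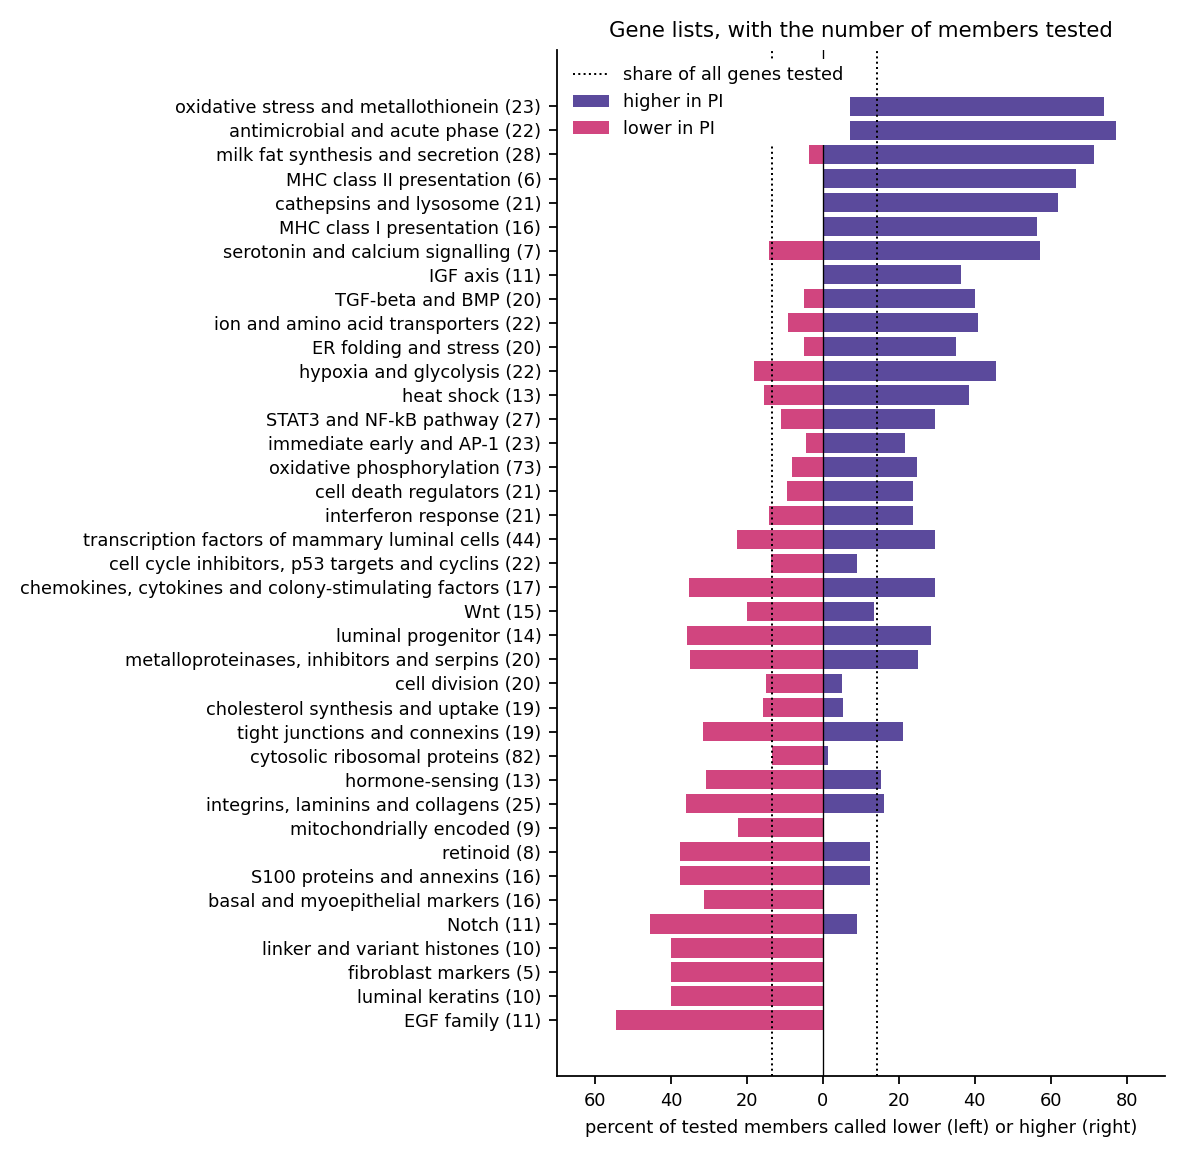
Percent of the tested members of each gene list with at least 5 tested members that were called higher (right) or lower (left) in PI, with the number tested in brackets and dotted lines at the share of all genes tested (14.2% higher, 13.3% lower). The antimicrobial, oxidative stress and milk fat lists reach farthest to the right and the EGF family farthest to the left.

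A level can be held by few or by many cells. Each cell was thinned to 2000 UMIs to set depths equal, and the share of cells with at least 1 UMI was taken in each mouse for the 4 most abundant named rises and the 4 most abundant named falls. *Hp* was detected in 1.61% (95% exact interval 0.594 to 3.48) and 3.17% (1.53 to 5.74) of NP cells and in 70.8% (67.5 to 73.8) and 80.7% (78.3 to 83.0) of PI cells. *Spp1* was detected in 0 of 372 NP cells of the first mouse, which allows up to 0.806% of cells with a UMI at this depth (4 of 372 had one without thinning), in 2.22% of the second and in 35.0% and 52.3% of PI cells. *Hilpda* was detected in 8.06% and 12.7% of NP cells and 61.7% and 73.2% of PI cells, and *Cck* in 8.87% and 12.7% against 52.8% and 61.1%. Each of these 4 was found in at least 35.0% of the progenitors of either PI mouse. In differentiated hormone-sensing cells of the same PI mice *Spp1* was found in 1.70% and 2.49% of cells and *Cck* in 1.21% and 1.09%. Of 27 and 53 basal PI cells, *Spp1* was found in 3.70% and 1.89%, 1 cell in each mouse, with intervals up to 19.0% and 10.1%. In differentiated cells the same test on summed UMIs called *Spp1* higher in PI (5.905 ± 0.544, adjusted p = 1.99e-05). What these small shares reflect was not tested. In the differentiated hormone-sensing cells of the PI mice *Hp* was found in 54.4% and 76.2% of cells and *Hilpda* in 19.4% and 33.0%, and so in many cells outside the luminal progenitors. In hormone-sensing progenitors of the PI mice the shares were 81.3% and 86.0% for *Hp*, 32.7% and 49.9% for *Spp1*, 44.9% and 62.3% for *Hilpda* and 33.6% and 47.0% for *Cck*, so that *Spp1* and *Cck* were common in both kinds of progenitors. Without thinning, at a median of 5579 to 7768 UMIs per cell, the shares in NP and PI progenitors were 5.91% and 7.28% against 81.6% and 87.7% for *Hp*, 1.08% and 3.48% against 47.0% and 62.7% for *Spp1*, 22.3% and 31.3% against 81.7% and 88.2% for *Hilpda* and 29.8% and 29.1% against 72.6% and 80.3% for *Cck*.

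The 4 lowered genes were detected in 26.3% to 59.8% of NP cells and in 2.43% to 6.27% of PI cells. *3110079O15Rik* was detected in 44.9% and 59.8% of NP cells and in 4.13% and 2.45% of PI cells, *Adamts1* in 40.6% and 36.1% against 3.76% and 5.0%, *H1f0* in 27.2% and 32.0% against 4.98% and 6.27%, and *Egln3* in 26.9% and 26.3% against 2.43% and 2.82%. Without thinning these shares were 71.5% and 82.9% against 7.77% and 6.81% for *3110079O15Rik*, 64.0% and 55.7% against 11.9% and 14.5% for *Adamts1*, 54.8% and 56.6% against 16.1% and 17.9% for *H1f0* and 60.8% and 48.4% against 7.52% and 7.99% for *Egln3*. In differentiated hormone-sensing cells *3110079O15Rik* and *Egln3* were in at most 1.54% of cells of any mouse. In hormone-sensing progenitors both were less frequent in PI than in NP as well, *3110079O15Rik* with 21.5% and 34.3% of NP cells against 2.80% and 1.04% of PI cells and *Egln3* with 12.1% and 9.47% against 0.935% and 1.56%. *H1f0* was there in 34.3% and 36.1% of NP cells and 30.8% and 37.9% of PI cells. *Adamts1* was less frequent in PI in hormone-sensing progenitors too, with 27.2% and 14.2% of NP cells against 8.41% and 4.935% of PI cells. It was in 55.6% of 27 and 60.4% of 53 basal PI cells, so its low share in PI progenitors was not shared by the basal cells of the same mice. The intervals cover counting error only, and no test was made over 2 mice per group.

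**Figure D4:**
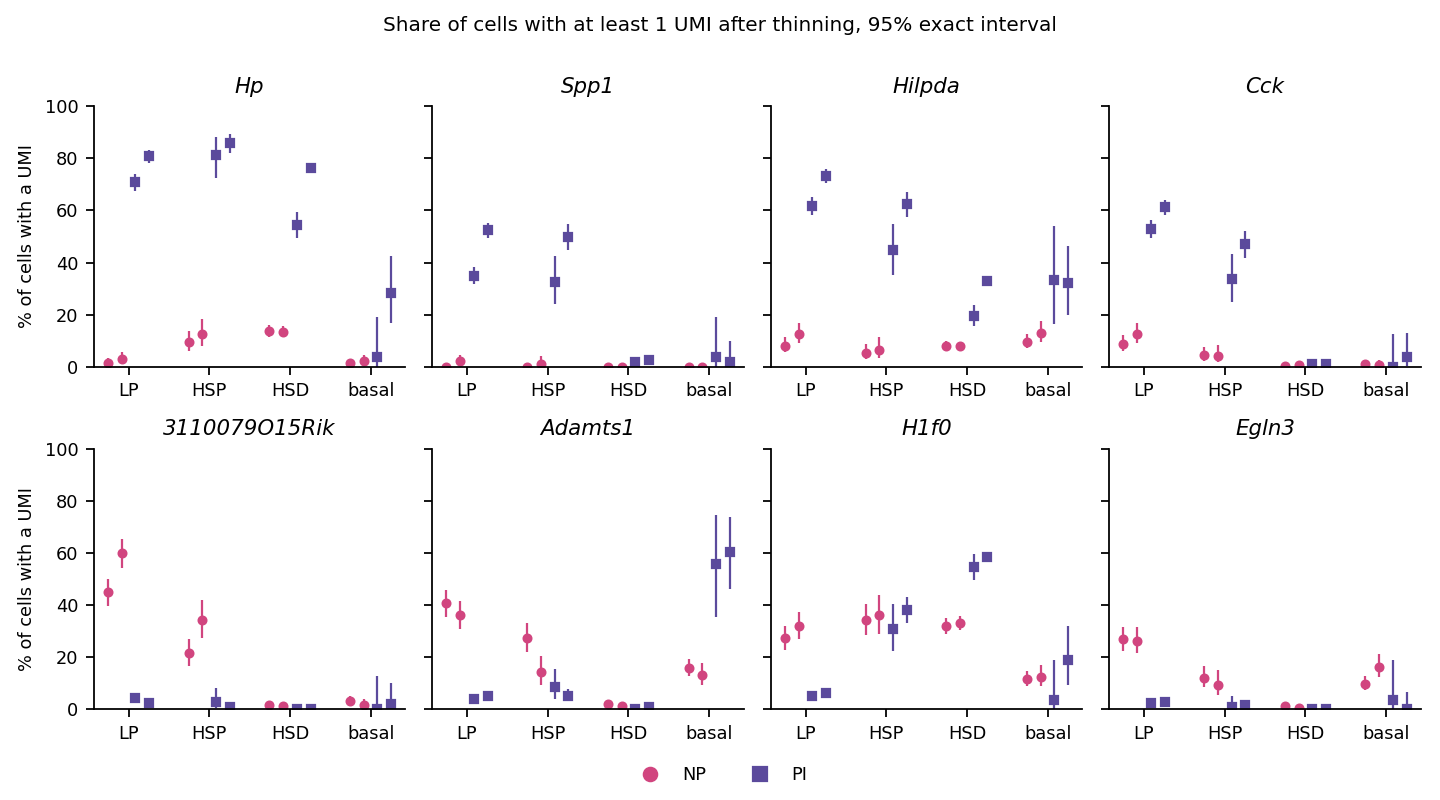
Percent of cells with at least 1 UMI of a gene after thinning each cell to 2000 UMIs, in luminal progenitors (LP), hormone-sensing progenitors (HSP), differentiated hormone-sensing cells (HSD) and basal cells, with circles for NP mice, squares for PI mice and bars for the 95% exact interval. In luminal progenitors the 4 raised genes (top) reach at least 35.0% of cells in both PI mice and the 4 lowered genes (bottom) at most 6.27%.

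The other luminal cells of the same 4 mice show which changes differed between cell types. They were differentiated hormone-sensing cells (C4 in NP, C3 in PI) and hormone-sensing progenitors (C2 in NP, C1 in PI), and a fit over 12 sums with the mouse as a term tested the change in luminal progenitors minus the change in each. Against differentiated cells 1270 genes had a more positive change in luminal progenitors (10.8% of 11748) and 1179 a more negative one (10%), together 20.8%. Against hormone-sensing progenitors these counts were 233 (1.98%) and 201 (1.71%), together 3.69% of the genes tested. Hormone-sensing progenitors had a median of 11580 to 16877 UMIs per cell against 5579 to 7768 in luminal progenitors, and droplets that hold 2 cells were not called here. Without the first NP mouse the 4 counts were 614, 546, 56 and 70, and without the second 791, 479, 49 and 57. Of the 20 named rises, which were chosen for a large change in luminal progenitors, 15 exceeded the change in differentiated cells and 5 that in hormone-sensing progenitors. Of the 20 named falls, 11 and 7 were deeper.

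Among the rises, *Pdk4* went from 6.71 and 8.96 to 35.7 and 44.7 CPM in differentiated hormone-sensing cells, a change smaller by 4.35 ± 0.25 (adjusted p = 2.03e-10) than in luminal progenitors. In hormone-sensing progenitors it rose from 6.96 and 6.65 to 296 and 523 CPM, and the difference of change of 0.81 ± 0.32 did not pass the test (adjusted p = 0.187). *Hp* went from 101 and 114 to 943 and 1518 CPM in differentiated hormone-sensing cells. Its change in luminal progenitors was larger than in these cells by 4.33 ± 0.19 (adjusted p = 2.29e-12). It was larger than in hormone-sensing progenitors by 3.12 ± 0.21 (adjusted p = 3.49e-09). *Gstm1* was level in the differentiated cells at 10.4 and 9.37 CPM in NP and 10.2 and 9.01 CPM in PI, with a difference of change of 3.47 ± 0.23 (adjusted p = 1.43e-09). In hormone-sensing progenitors *Gstm1* rose from 12.8 and 10.7 to 70.4 and 49.3 CPM, with a smaller difference of change of 1.15 ± 0.25 (adjusted p = 0.0122). *Spp1* and *Cyp24a1* had differences of 1.86 ± 0.93 and 1.76 ± 4.45 that did not pass the test (adjusted p = 0.176 and 0.833), their levels in differentiated cells being at most 10.7 and 0.708 CPM. In hormone-sensing progenitors *Spp1* rose from 0.387 and 3.76 to 796 and 1359 CPM (difference of change -1.23 ± 0.40, adjusted p = 0.0987).

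Among the falls, *Slc38a1* was at 72.0 and 65.4 CPM in NP and 59.4 and 62.3 CPM in PI in differentiated hormone-sensing cells, and its fall in luminal progenitors was deeper (difference of change -4.75 ± 0.27, adjusted p = 1.70e-10). It was deeper than in hormone-sensing progenitors as well (65.9 and 59.5 to 33.9 and 30.8 CPM, difference -3.95 ± 0.30, adjusted p = 3.35e-08). *Tfap2b* stood at 77.4 and 82.1 CPM in NP and 103 and 104 CPM in PI in the differentiated cells, against its fall to 3.38 and 4.39 CPM in luminal progenitors (difference -3.67 ± 0.22, adjusted p = 2.70e-10). *H1f0* had the opposite order there, from 242 and 265 to 555 and 663 CPM in differentiated cells (difference -4.11 ± 0.18, adjusted p = 1.31e-12). *S100a6* was at 7769 and 6578 CPM in NP and 8251 and 7218 CPM in PI there, with a difference of -1.82 ± 0.12 (adjusted p = 6.59e-10). *Egln3* and *3110079O15Rik* were under 9 CPM in all differentiated sums, and their differences did not pass the test (adjusted p = 0.378 and 0.535). Both fell in hormone-sensing progenitors, *Egln3* from 83.1 and 69.1 to 7.94 and 10.9 CPM and *3110079O15Rik* from 169 and 263 to 25.9 and 6.17 CPM, with differences of change that did not pass either (adjusted p = 0.185 and 0.519). *Aldh1a3* fell in hormone-sensing progenitors from 736.8 and 552.5 to 265.2 and 129.9 CPM. Its difference of change there did not pass the test (-0.59 ± 0.23, adjusted p = 0.189). In differentiated cells *Aldh1a3* fell more steeply (-4.62 ± 0.49, adjusted p = 6.21e-05), to at most 1.22 CPM in PI. The difference of change against these cells was 1.94 ± 0.46 (adjusted p = 0.00488).

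**Figure D5:**
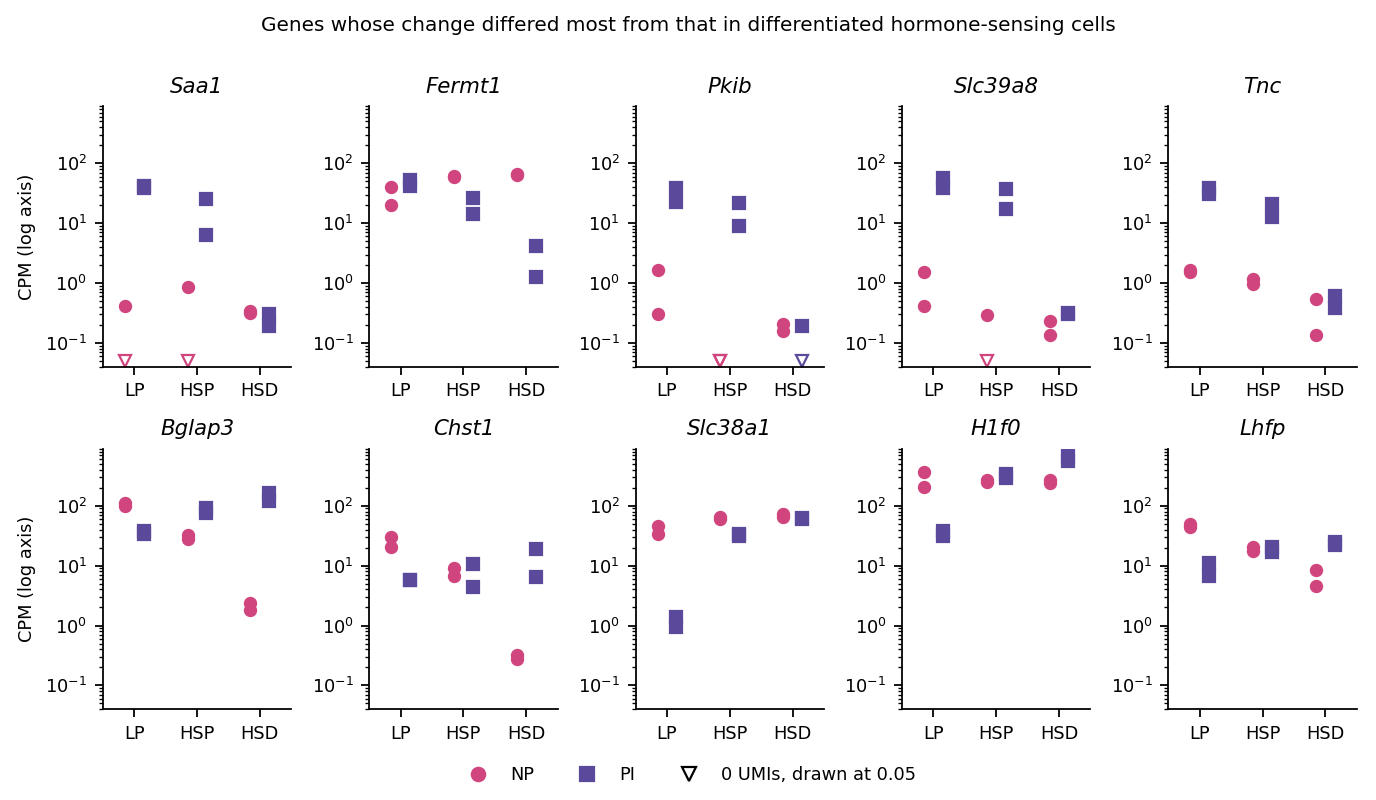
Level in CPM (log axis) in luminal progenitors (LP), hormone-sensing progenitors (HSP) and differentiated hormone-sensing cells (HSD) for the 5 most positive (top) and 5 most negative (bottom) differences of change between LP and HSD, with circles for NP mice, squares for PI mice and open triangles at 0.05 for 0 UMIs. *Slc38a1* falls in LP from 45.0 and 33.2 to 0.947 and 1.38 CPM and stays between 59.4 and 72.0 CPM in HSD, while *H1f0* falls in LP and lies higher in PI than in NP in HSD.

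Alveolar progenitors of mid-gestation (C10 in the G libraries, 89 and 126 cells, day 14.5) offer a further reference, though a comparison with them would share the NP sums and none was tested. Several of the largest post-involution rises were at a few CPM there, with *Hp* at 1.53 and 6.86 CPM, *Spp1* at 1.53 and 0 CPM, *Cyp24a1* at 3.06 and 1.25 CPM and *Saa1* at 0 in both G mice. *Pdk4* stood at 28.3 and 64.9 CPM and *Tnc* at 21.4 and 21.2 CPM, between NP and PI. Of the falls, *Aldh1a3* was at 379 and 467 CPM, *Egln3* at 111 and 122 CPM and *Slc38a1* at 17.6 and 13.7 CPM in gestation, again between NP and PI or near PI. *Gm266*, in contrast, was at 153 and 159.7 CPM in gestation, above both resting stages, and *Wfdc18* at 11980 and 8980 CPM. No single ordering of the stages held across these genes.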

How the data were processed

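Cells were profiled on the 10x Chromium 3' platform, with 1 library per mouse and tissues processed at the same time. The authors assigned barcodes and counted UMIs with Cell Ranger against mm10, and the submitters' processing notes also name STAR, whose version is not given in the sources used here. The deposited matrices hold raw UMI counts per gene and cell, not normalised between libraries. Quality flags and cluster numbers came from the authors' deposited cell table, which also gives the fraction of mitochondrial UMIs per cell as computed by the authors (used here only to describe cells). The members and gene lists were chosen with earlier results of these data known.

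Counts were summed per mouse and cluster for 27998 genes, from cells past the authors' quality flag. The 791 cells that shared 392 barcodes between libraries all failed that flag, so no barcode was shared among member cells. Sums held 2411364 to 7967835 UMIs. edgeR 4.0.16 (R 4.3.3) tested genes kept by filterByExpr with a minimum count of 10 and minimum total of 15, with TMM factors, quasi-likelihood F-tests, 2 residual degrees of freedom and Benjamini-Hochberg adjustment. In a second fit of 12 sums the mouse was a term. CPM values are shares of library totals. Replicate numbers are those of the labels and nothing says that equal numbers mark a shared batch.

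Genes were named by the size rule stated in the report, as members of 43 lists with 985 members in the matrices, as genes that the study names, or as the 5 most positive and 5 most negative differences of change against differentiated hormone-sensing cells. A few genes that this rule or the lists would name are not reported here. The test was checked on simulated data over the same 10744 genes at a dispersion of 0.05, where changes of 2 on the log2 scale were recovered in 94% (higher) and 92% (lower), changes of 1 in 22.4% and 26%, and 3.31% of 121 calls were false. The simulated spread was wider than that of the data, where the square root of the common dispersion was 0.11. Far fewer genes were changed in the simulation than were called in the data. These rates therefore do not describe the real comparison. Smaller changes can be missed at this depth and number of mice, but how often was not measured. Exact binomial intervals cover counting error only. No doublet caller was run. The authors set a cluster apart as doublets, which holds none of the member cells, and an alternative left out the 10% of cells with most UMIs in each library. Alternatives covered tool, filter, scaling, membership, depth, number of cells, each mouse left out and the replicate block, with DESeq2 1.42.0, Python 3.11.15, numpy 2.4.6, scipy 1.17.1, pandas 2.3.3 and matplotlib 3.10.9.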

Additional observations from a re-analysis of the deposited data

Results flagged for a closer look

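These results are listed because a test of the difference itself found that the change from NP to PI was not the same in luminal progenitors as in another luminal cell type of the same mice. Against differentiated hormone-sensing cells the change was more positive in 1270 genes and more negative in 1179. Against hormone-sensing progenitors it was more positive in 233 genes and more negative in 201.

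The 5 most positive differences against differentiated hormone-sensing cells were those of *Saa1* (8.40), *Fermt1* (5.79), *Pkib* (5.56), *Slc39a8* (4.69) and *Tnc* (4.38), each as the log2 change in luminal progenitors minus that in differentiated cells. *Saa1*, *Pkib*, *Slc39a8* and *Tnc* lay under 1 CPM in every differentiated sum, so their differences rest on few UMIs there. Each of them was also higher in PI in hormone-sensing progenitors. Against those cells their differences of change did not pass the test (adjusted p = 0.674, 0.241, 0.456 and 0.819), while that of *Fermt1* did (adjusted p = 3.57e-04). *Fermt1*, which encodes the integrin activator kindlin-1, came about differently, with 40.7 and 19.9 CPM in NP and 41.1 and 52.1 CPM in PI in luminal progenitors and 62.6 and 66.9 against 4.20 and 1.29 CPM in differentiated cells.

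The 5 most negative differences were those of *Bglap3* (-7.52), *Chst1* (-7.14), *Slc38a1* (-4.75), *H1f0* (-4.11) and *Lhfp* (-4.04). *Bglap3*, of the osteocalcin family, whose members are close copies, was at 100.5 and 112 CPM in NP and 38.0 and 34.0 CPM in PI in luminal progenitors and at 2.37 and 1.79 CPM in NP and 122 and 163 CPM in PI in differentiated cells. *Chst1*, a keratan sulphate sulphotransferase, was at 29.9 and 20.7 CPM in NP and 5.68 and 5.65 CPM in PI in luminal progenitors and at 0.316 and 0.276 CPM in NP and 18.9 and 6.37 CPM in PI in differentiated cells. *Lhfp* was at 43.5 and 49.4 CPM in NP and 6.76 and 11.2 CPM in PI against 8.61 and 4.48 CPM in NP and 25.2 and 21.9 CPM in PI. In these 3 genes and in *H1f0* both PI mice lay under both NP mice in luminal progenitors and above both in differentiated cells.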

How the results depend on the processing

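The numbers of genes higher and lower in PI (1524 and 1431) stayed within 1.5 times of these without a filter, under the filter of the study, without TMM, without the milk genes, with all C6 and C7 cells grouped by stage, with equal UMIs, with equal numbers of cells, without the 10% of cells with most UMIs and with the replicate block. DESeq2 called 907 higher and 708 lower, and a test against a log2 fold change of 1 at an adjusted p of 0.01 called 143 and 109. Leaving out 1 mouse gave 876 to 1381 higher and 851 to 1193 lower. Some of these settings had fewer mice or a stricter threshold, and the cause of the shifts was not tested. Of 155 called genes described in the text, 129 were called in every one of 14 settings in which they were tested. Only *Col1a2* changed direction, with log2 fold changes from -7.08 to 0.74 when 1 mouse was left out, the latter without the second NP mouse. The deviations of mice with equal replicate numbers had a correlation of 0.0569. With 2 mice per stage this cannot show whether equal numbers mark a pairing. With the replicate block 1607 genes were higher and 1539 lower, with all 155 described genes still called.

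For the difference of change against differentiated hormone-sensing cells (1270 more positive, 1179 more negative), DESeq2 gave 620 and 510, the fit with no replicate block, that is without the mouse term, 592 and 605, and leaving out 1 mouse 614 to 1342 and 479 to 1110. Against hormone-sensing progenitors (233 and 201), DESeq2 gave 109 and 108, the fit with no replicate block 50 and 43, no filter 372 more positive, and leaving out 1 mouse 49 to 223 and 57 to 170. Of 27998 genes 10744 passed the filter on low counts, and changes in the others were not tested at this depth.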

Other observations

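Several members of the listed pathways that the text has not described were also called. *Foxs1*, a forkhead factor, was at 3.02 and 2.07 CPM in NP and 11.8 and 11.2 CPM in PI (2.21 ± 0.33, adjusted p = 5.15e-04), and the clock gene *Per1* at 10.6 and 8.71 CPM in NP and 19.2 and 20.0 CPM in PI (1.09 ± 0.21, adjusted p = 0.00299). Both were higher in the PI mice without overlap. *Aqp5*, a water channel of secretory glands, was at 67.3 and 71.3 CPM in NP and 92.7 and 101 CPM in PI (0.57 ± 0.13, adjusted p = 0.00831). Without the first NP mouse *Aqp5* was not called.

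Basal cells of the same mice (504 and 282 in NP, 27 and 53 in PI) were not tested here. The metalloproteinase gene *Adamts1*, lowered in luminal progenitors, was at 137 and 94.2 CPM in NP and 807 and 655 CPM in PI in these cells, the opposite order, and this difference was not tested.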
